A study of Oryza sativa with 6 samples.

Results

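Aux/IAA proteins are short-lived repressors of the response to auxin, a hormone that steers growth, branching and root formation in plants. As worked out mainly in Arabidopsis, they bind auxin response factors (ARFs) at the promoters of auxin-responsive genes and recruit corepressors of the TOPLESS type. Auxin joins an Aux/IAA protein to an F-box receptor of the TIR1/AFB type, the repressor is degraded, and the ARF is released. Many Aux/IAA genes are themselves induced by auxin, so that the family takes part in its own feedback.

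The 10 genes described here are IAA1, IAA6, IAA9, IAA10, IAA13, IAA14, IAA17, IAA23, IAA30 and IAA31 of rice (Oryza sativa). They were chosen by name, as the rows of the table that carry their locus identifiers, and all 10 were found among its 30020 genes. RNA came from 30-day-old seedlings of 2 groups, 3 samples of the oschz1 mutant and 3 of wild-type. The mutant was made with CRISPR/Cas9 and lacks OsChz1, a histone chaperone that handles dimers of H2A or its variant H2A.Z with H2B. Both genotypes were raised in long days (14 h light at 30 °C, 10 h dark at 28 °C), first for 10 days on a half-strength medium and then for 20 days on undiluted medium. Each RNA sample was drawn from several seedlings, and the mutant samples came from a single line carrying the first of the oschz1 alleles that the study describes.

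The measurement used is the authors' mean normalized count, which is the read count of a gene divided by the size factor of its library and averaged over all 6 libraries. It joins both genotypes in a single value. No difference between oschz1 and wild-type is therefore computed for any gene, and the levels below describe seedlings of both genotypes together. The mean carries no spread between samples, so the errors are 95% Poisson intervals of read counting, computed as if the level were the same in each library. They cover counting error only and leave out any further spread between samples, so they may be too narrow. The mean is also not divided by transcript length, so that the order of 2 genes is an order of reads and not of transcripts.

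The size factors, which scale with sequencing depth, were recovered for the 6 libraries and ranged from 0.596 to 1.59. Which library belongs to which genotype was not assigned. The labelled tissue was checked against markers: the leaf genes RbcS (LOC_Os12g19470) and CAB1R (LOC_Os09g17740) had mean normalized counts of 23023 and 227551, and CAB1R was the highest of all genes. LOC_Os01g52240, listed as LHCB1.3, a further leaf gene, had 11869. The root transporter genes Lsi1 (LOC_Os02g51110), for silicon, and IRT1 (LOC_Os03g46470), for iron, had 232 and 64.5. OsMADS3 (LOC_Os01g10504), a gene of floral organs, had 16.8. The root gene Lsi2 and the floral genes OsMADS7 and OsMADS8, also on the marker lists, have no level and so were not analysed here. Reads were thus present for all 3 leaf genes, 2 of the 3 root genes and 1 of the 3 floral genes listed.

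The read levels of the 10 Aux/IAA genes ran from 6.0 to 10095 mean normalized counts, a 1683-fold range. IAA17 (LOC_Os05g14180, on chromosome 5) stood first with 10095 (interval 10017 to 10173). IAA13 (LOC_Os03g53150) followed with 3819 (3772 to 3867) and IAA10 (LOC_Os02g57250) with 1700 (1668 to 1732). These 3 genes held 91.4% of the summed normalized counts of the 10, and IAA17 alone 59.1%. The other 7 genes together held 8.62%. IAA13 is known in rice for a role in lateral root formation, and the IAA10 protein is known as a target of a protein of rice dwarf virus.

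**Figure D1:**
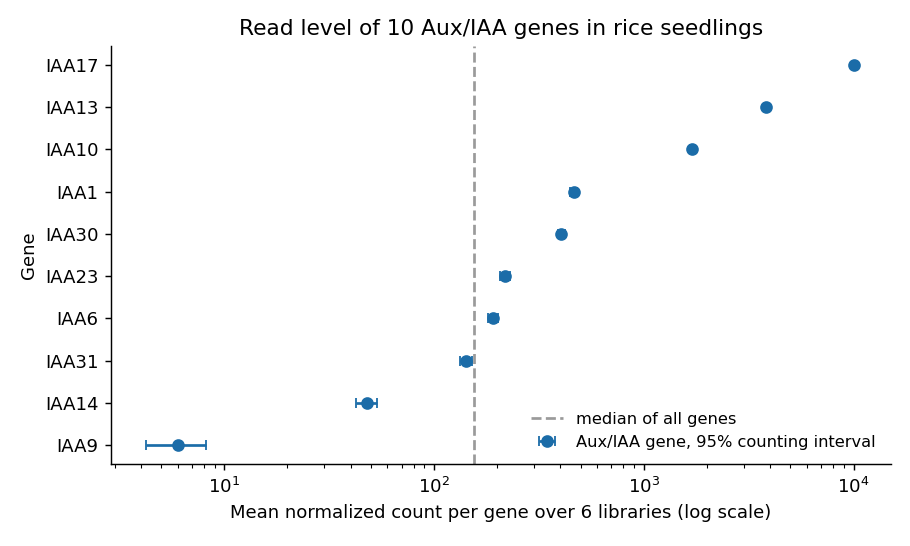
Authors' mean normalized count over 6 libraries (x axis, log scale) of the 10 Aux/IAA genes (y axis, ordered by level), with 95% Poisson counting intervals as bars and the median of all genes, 155, as a dashed line. IAA17, IAA13 and IAA10 lie at 1700 or more, while IAA31, IAA14 and IAA9 lie left of the dashed line.

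A middle group of 5 genes lay between 142 and 464 mean normalized counts, against a median of 155 over all 30020 genes. IAA1 (LOC_Os01g08320, on chromosome 1) had 464 (447 to 481) and IAA30 (LOC_Os12g40890) had 405 (389 to 421), a ratio of 1.15. IAA23 (LOC_Os06g39590, on chromosome 6), known in rice for keeping the root quiescent centre, had 218 (207 to 230). IAA6 (LOC_Os01g53880), linked in rice to drought tolerance and tiller growth, had 191 (180 to 202), and the ratio of IAA23 to IAA6 was 1.14. IAA31 (LOC_Os12g40900) had 142 (133 to 152). The study includes this locus among genes tested by PCR for higher transcription and lower nucleosome occupancy in the mutant. Its mean therefore joins genotypes that the study reports as unequal, whereas its interval assumes an equal level. The intervals of the other members make the same assumption, and whether their levels are equal between genotypes was not tested. The counting intervals of neighbours in this order did not overlap for any of the 10 genes. Whether neighbours differ beyond the spread between samples was not tested, since the means carry none.

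IAA14 and IAA9 were the lowest. IAA14 (LOC_Os03g58350) had a mean normalized count of 47.9 (42.7 to 53.6). IAA9 (LOC_Os02g56120) had 6.0 (4.26 to 8.21) and was the only member of the 10 under 10. About 39 reads were behind the IAA9 value, against about 64873 behind that of IAA17 at equal levels in all libraries, so that the precision differs widely among the members.

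IAA9 was low enough for its reads in each library to be recovered. Only 1 set of whole reads over the 6 libraries gives its mean within 1e-09. From the deepest library to the shallowest, with size factors of 1.59, 1.49, 1.19, 0.820, 0.738 and 0.596, it had 10, 12, 3, 6, 5 and 3 reads. Divided by the size factors, these reads gave normalized counts of 2.51 at the lowest, 6.54 at the median and 8.05 at the highest, a 3.20-fold range. All 6 libraries therefore held IAA9 reads, and the lowest value was in the library with a size factor of 1.19. That value had an exact 95% Poisson interval of 0.518 to 7.34, and the highest had one of 4.16 to 14.1, so the intervals of these libraries overlapped. No group is assigned to the libraries, and these values support no comparison of genotypes.

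**Figure D2:**
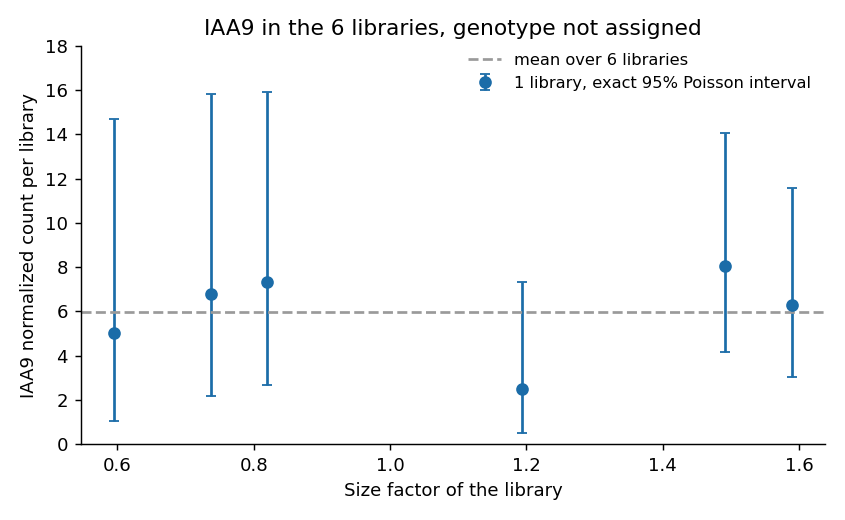
Normalized count of IAA9 (y axis) in each of the 6 libraries, placed by size factor (x axis), with exact 95% Poisson intervals as bars and the authors' mean of 6.0 as a dashed line. Genotypes are not assigned to the libraries, and the points lie between 2.51 and 8.05 with overlapping intervals.

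Set among all genes of the table, the members spread over most of its range. IAA17 exceeded 99.1% of the genes, IAA13 96.8% and IAA10 90.1%. IAA1 and IAA30 exceeded 68.1% and 65.5%. IAA23, IAA6 and IAA31 lay near the middle, above 55.0%, 53.0% and 48.9% of the genes. IAA14 exceeded 37.3% and IAA9 21.5%. Of the 10 members, 7 lay above the median of all genes, 3 had at least 1000 mean normalized counts and 1 had under 10. The first count depends on the genes it is set against: 6 members lay above the median of the genes with at least 1 mean normalized count, and 5 above that of the genes with at least 10. Among the genes with at least 10, IAA14 exceeded 16.3%. Of all 30020 genes, 5264 had at least 1000 and 7516 had under 10. The lowest level among the 30020 genes was 0.210, so that genes without reads are outside these shares and medians. The median level of the members was 311.

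**Figure D3:**
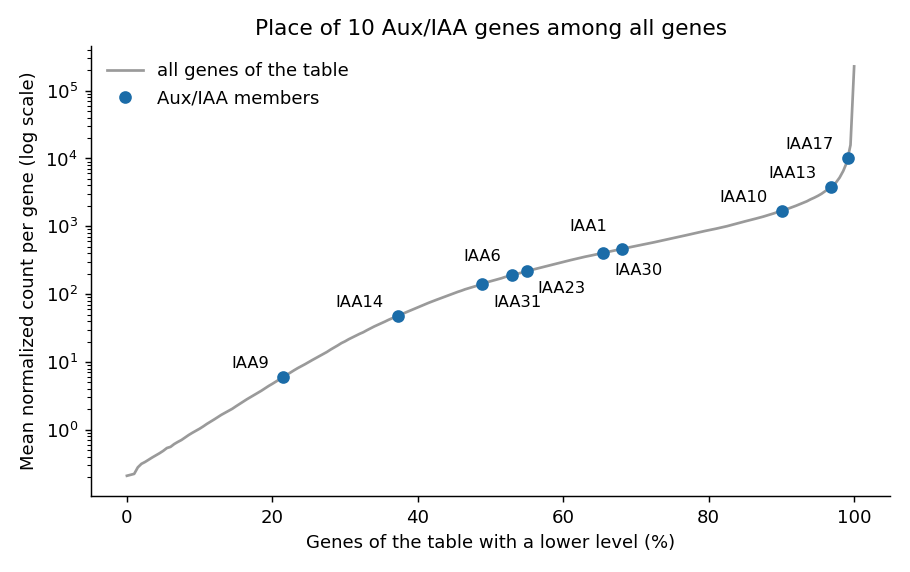
Share of the 30020 genes with a lower level (x axis, percent) against the authors' mean normalized count (y axis, log scale), for all genes as a line and the 10 Aux/IAA genes as points. The members run from 21.5% for IAA9 to 99.1% for IAA17, with 5 of them between 48.9% and 68.1%.

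The members lie on 6 chromosomes, with pairs on chromosomes 1, 2, 3 and 12. IAA30 and IAA31 are neighbours on chromosome 12: no other locus of the table lies between them, and the RefSeq gene table of assembly ASM3414082v1 likewise places 0 genes between them. Their read levels were 405 and 142 mean normalized counts, a ratio of 2.85, so that IAA30 held 74.0% of the counts of the pair. Pairs that share a chromosome without being neighbours were further apart in level on chromosomes 2 and 3. IAA10 had 1700 and IAA9 had 6.0 on chromosome 2, a ratio of 283. IAA13 had 3819 and IAA14 had 47.9 on chromosome 3, a ratio of 79.8. On chromosome 1 the ratio of IAA1 to IAA6 was smaller, at 2.43, which is below that of the neighbours IAA30 and IAA31.

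The rice family was listed with 31 Aux/IAA genes, of which 27 have a level. IAA5, IAA26, IAA28 and IAA29 have no level among the 30020 genes and so were not analysed here. The 10 members held 59.4% of the summed normalized counts of these 27 genes, and IAA17 alone 35.1%. Without IAA17 the members held 37.5%. The members were chosen with earlier results of these data known, so these shares only describe the chosen genes. Among the other 17 genes, IAA21 (LOC_Os06g22870) was the highest with 4673 mean normalized counts, second in the family after IAA17, and IAA3 (LOC_Os01g13030) had 3367, next below IAA13. IAA24, IAA19, IAA15 and IAA25 followed, with levels between 382 and 1153. IAA2, IAA8, IAA4, IAA7, IAA16, IAA12, IAA18 and the locus listed as IAA27 lay between 12.1 and 143. IAA20, the locus listed as IAA22 and IAA11 (LOC_Os03g43400) were the lowest, with 3.08, 2.38 and 1.77. The median of the other 17 genes was 44.7, and 6 of them lay above the median of all genes. Of the 27 family genes, 6 (22.2%) had at least 1000 mean normalized counts and 4 (14.8%) had under 10. Of all 30020 genes, 5264 had at least 1000 and 7516 had under 10. The 27 genes thus had a somewhat larger share of high genes and a smaller share of low genes than the whole table. These family shares rest on only 6 and 4 genes, and the 4 family genes without a level are outside them. Whether the family shares differ from those of all genes beyond chance was not tested.

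RNA reads of genes for auxin receptors, ARFs and corepressors were also counted in these seedlings, while their proteins were not measured. The auxin receptor genes, LOC_Os05g05800 and LOC_Os04g32460, listed as TIR1 and AFB2, had 877 and 985 mean normalized counts. This is below IAA17, IAA13 and IAA10 in reads and above the other 7 members. Of 25 listed ARF genes, 24 have a level, with a median of 964. Which of these ARFs are held back by Aux/IAA proteins was not tested. ARF4 (LOC_Os01g70270) was the highest with 6861 and LOC_Os04g56850, listed as ARF11, the lowest with 1.92. Of these 24 genes, 22 lay above the median of all genes. The 3 corepressor genes had between 3932 for TPR1 (LOC_Os01g15020) and 6998 for LOC_Os08g06480, listed as ASP1. IAA17 had more reads than every ARF, receptor and corepressor gene listed here.

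**Figure D4:**
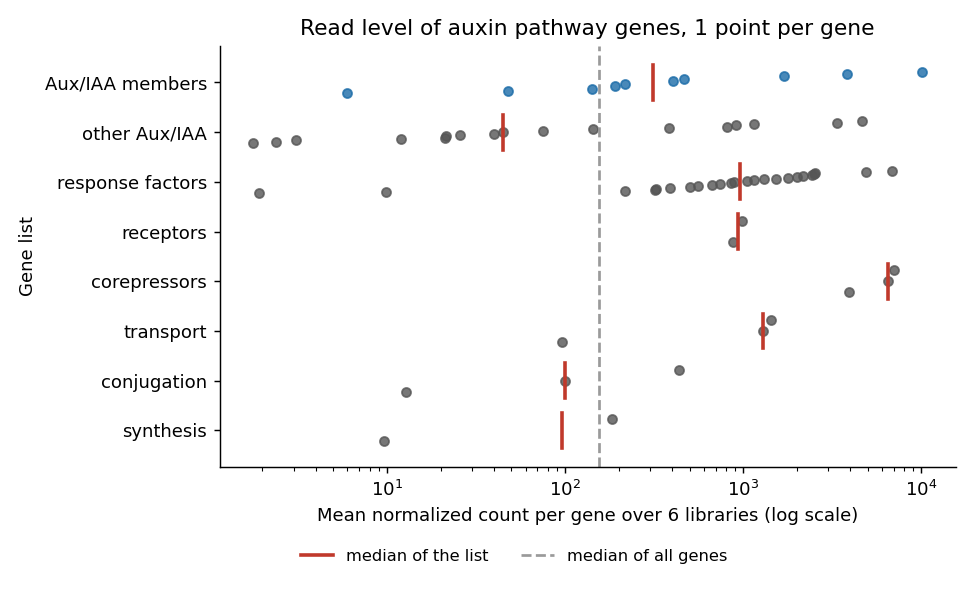
Authors' mean normalized count over 6 libraries (x axis, log scale) of single genes (points) in 8 lists of the auxin pathway (y axis), with the median of each list as a red bar and the median of all genes as a dashed line. The 10 Aux/IAA members run from 6.0 to 10095 with a median of 311, and 22 of the 24 response factor genes lie right of the dashed line.

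Genes for moving, making and conjugating auxin differed in read level as well. Of the transport genes, the efflux carrier gene PIN1a (LOC_Os02g50960) had the most, 1442 mean normalized counts, and LOC_Os06g12610, listed as PIN1b, had 96.1. PIN2 has no level and so was not analysed here. Among the GH3 genes, whose enzymes couple auxin to amino acids, GH3-2 (LOC_Os01g55940) had 438, a level between those of IAA1 and IAA30, and GH3-1 (LOC_Os01g57610) had 12.8. The auxin synthesis genes TAA1 (LOC_Os01g07500) and YUCCA1 (LOC_Os01g45760) had 183 and 9.57.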

How the data were processed

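The labels assign 3 RNA-seq samples to oschz1 and 3 to wild-type. The authors state that reads were trimmed with cutadapt, aligned to the Nipponbare genome (MSU annotation) with HISAT2, limited to unique alignments and counted per gene with featureCounts. Reads shared by near-identical copies are thus left out, and the sources used here do not say whether counting used strand. The values used are a signal that the authors deposited, the mean count over all 6 libraries after division by DESeq2 size factors. A further 5 columns hold the authors' comparison of the genotypes (log2 fold change, its error, statistic and p-values) and were not used, so no test was run and no paired fit exists.

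The value of 1 read in each library was recovered from the lowest means: all 3706 genes with means of 1.5 or less (100%) were sums of whole reads within 3e-08. The search was tested on simulated data. Means under 10 were then resolved into whole reads where a single solution existed within 1e-09. Python 3.11.15, numpy 2.4.6, pandas 2.3.3, scipy 1.17.1 and matplotlib 3.10.9 were used. For a count of 0, 3 reads were taken as an upper limit, and the count itself was kept as 0.

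Symbols were paired with loci from general knowledge. The reference table does not list these loci, but names 68 of 79 symbols, with all 10 members, on the chromosome of the locus, 2 on another and 9 not at all; the last 11 are written as listed where a level is given. The members and lists were chosen with earlier results of these data known. Named genes were all members, the receptors and other family genes, the highest and lowest of each other list, and the remaining markers. Alternatives were other background genes, the family without its highest gene and a geometric mean.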

Additional observations from a re-analysis of the deposited data

How the results depend on the processing

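No paired analysis was possible because the values used are means over all libraries, and no test was run. The share of genes below each member depended on which genes were counted. Among the 27108 genes with a mean normalized count of at least 1 it was 99.0% for IAA17, 96.5% for IAA13, 89.1% for IAA10, 64.7% for IAA1, 61.8% for IAA30, 50.1% for IAA23, 47.9% for IAA6, 43.4% for IAA31, 30.5% for IAA14 and 13.1% for IAA9. Among the 22504 genes with at least 10 it was 98.8% for IAA17, 95.8% for IAA13, 86.8% for IAA10, 57.4% for IAA1, 53.9% for IAA30, 39.9% for IAA23, 37.3% for IAA6, 31.8% for IAA31 and 16.3% for IAA14, and IAA9 was under that limit. IAA23 and IAA6 thus lay above the middle of all genes but below the middle of the genes with at least 10, where fewer low genes are counted. Without IAA17, the highest gene of the family, the members held 37.5% of the family total, in place of 59.4%. The geometric mean of the members was 340, in place of a median of 311. Levels per 1000 bases of coding sequence were not run, since no coding lengths were used here, so the order of genes by transcripts was not tested. Among the 10 members depth limits IAA9 most, with 39 reads in all.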

Other observations

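Whole reads per library were also recovered for 3 other Aux/IAA genes, again with no genotype assigned. IAA20 (LOC_Os06g07040) had 21 reads in 5 of the 6 libraries, with normalized counts from 0 to 5.04 and a median of 3.61. IAA22, listed at LOC_Os06g24850, had 17 reads in 4 libraries, and the 2 without reads were the shallowest. IAA11 (LOC_Os03g43400) had 10 reads in 5 libraries. In the library with a size factor of 0.596, the limit of 3 reads taken for a count of 0 is a normalized count of 5.04. The exact 95% Poisson interval of a count of 0 there reaches 6.19. An absence of IAA22 in that library was thus not detectable at this depth. IAA9, the lowest member of the 10, had reads in all 6 libraries.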
